A study of Mus musculus with 292 samples.

Results

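Mro encodes maestro, a protein of HEAT-like repeats that is found in the nucleolus and is best known from the developing male gonad. Brains of an F2 intercross were divided into groups chosen by the measured value of the only probe annotated to Mro among the 23549 probes used. Every other probe was then compared between the divided mice. The low group held the 88 mice with a log10 ratio under -0.215, the high group held the 67 mice over 0.14, and the 137 mice between these bounds were kept out of the comparison to serve as a check for dose. Together these were all 292 mice of the series.

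Each mouse was an F2 animal of C57BL/6J and C3H/HeJ, crossed in both directions, and the series held females and males. The animals had chow of 4% fat up to week 8, then a Western diet of 42% fat and 0.15% cholesterol for 12 weeks, and their brains were taken at 20 weeks of age after a 12 h fast. Every mouse shared this diet and age, so no group was untreated, and no label gives the low, between and high groups a different treatment. No label gave the sex, cross direction or genotype of a single mouse. Each brain was hybridised once, in Cy3, against a common Cy5 pool of all samples, and the deposited values are read here as log10 of mouse over pool. A mouse is 1 animal with 1 array, so the spread between mice includes measurement error.

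In an intercross, long stretches of a chromosome pass together from parent to offspring. A gene whose expression follows the parental copy near it can therefore carry along the values of other such genes of the same chromosome, more closely the nearer they lie. Mro lies on chromosome 18, and genes of that chromosome were accordingly kept apart from the rest. Position is given below as the order of the measured genes along the chromosome in the gene table of assembly GRCm38.p6. Mro stood at place 225 of the 259 measured genes, with 224 before it and 34 after it.

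The Mro values chose the groups and are given as a description. A gap set the low mice apart from the rest, whereas the mice between and the high mice met without one. In the low mice they ran from -0.68 through a median of -0.46 to -0.273, in the mice between from -0.186 through 0.0248 to 0.139, and in the high mice from 0.15 through 0.245 to 0.44. The group means were -0.457 ± 0.0899 (SD, n = 88), 0.0211 ± 0.0532 (SD, n = 137) and 0.257 ± 0.0611 (SD, n = 67), so the high mice lay 5.17-fold above the low mice, and the step from low to between (3-fold) was larger than that from between to high (1.72-fold). The lower bound fell in a gap of 0.0865 between neighbouring mice. At the upper bound the highest mouse between stood at 0.139 and the lowest high mouse at 0.15, a gap of 0.0107, so mice next to that bound differed little. The groups held 30.1%, 46.9% and 22.9% of the mice.

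**Figure D1:**
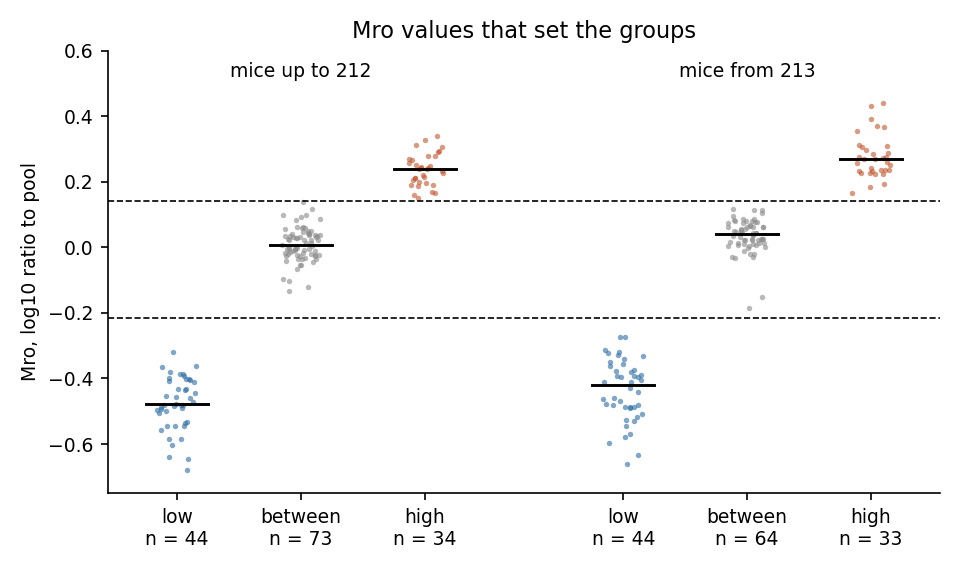
Mro log10 ratio to the pool for each mouse (points) by group and mouse-number block, with medians (bars) and the bounds of -0.215 and 0.14 (dashed). The low mice end at -0.273, well short of the lower bound, whereas the high mice begin at 0.15, just above the upper bound.

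Mouse numbers up to 212 and from 213 formed the blocks of the comparison. A spelling difference in the description divides the mice up to 212. This gave 3 sets, called A, B and C here (C being the mice from 213). No label says whether a set or a block was a batch of arrays. Low mice made up 35.1% of set A (26 mice), 23.4% of set B (18 mice) and 31.2% of set C (44 mice), and high mice 18.9% (14 mice), 26% (20 mice) and 23.4% (33 mice). Low and high arrays had the same median SD across their probes, 0.0683. Over all probes, pairs of arrays correlated with a median r of 0.109, and 3.39% of the pairs lay under -0.3. Turning the sign of every array would leave these correlations unchanged, so they cannot settle the direction of the deposited ratio. The mean linear ratio of Mro to the pool was 1.02 as deposited and 1.46 with the sign turned, where a pool of equal portions would give 1. It was 0.971 in base 2, so this measure did not settle the base. Every fold given here assumes base 10. In base 2 the difference of Hbegf would be 1.22-fold in place of 1.94-fold and that of Smad4 1.12-fold in place of 1.46-fold, and 1 called gene of chromosome 18 in place of 12 would reach 1.2-fold. With the sign turned, the low mice would be those with more Mro and every difference below would change its sign, while each gene's direction relative to Mro, and every count of calls, would stay.

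Among named genes, each on its most variable probe, the differences called between low and high mice lay almost wholly on chromosome 18. With mouse-number block as a covariate, limma called 33 of the 258 other genes of chromosome 18 at an adjusted p under 0.05 (12.8%), against 3 of 10576 genes elsewhere (0.0284%). Over all 10834 genes tested the share called was 0.332%, and over all 23548 probes it was 0.289% (68 probes). Of those 68 probes 29 had no named gene, so their chromosomes are unknown. At an unadjusted p under 0.05 stood 60 chromosome 18 genes (23.3%) and 306 genes of other chromosomes (2.89%). A limit of these counts is that they moved when a called gene was itself taken as a covariate, a setting added after the data were seen. With Smad4 as covariate 97 genes of chromosome 18 and 2255 genes elsewhere were called, and with Hbegf 8 and 1; the cause was not tested. Of the 33 called genes of chromosome 18, 17 were higher in low mice (6.59% of the genes tested there) and 16 were lower (6.2%). The median called gene differed by 1.15-fold, the smallest by 1.05-fold and the largest by 1.94-fold, and 12 reached 1.2-fold. These are whole-brain values, in which fewer cells of a type and less RNA per cell cannot be told apart. Of the called genes of chromosome 18, Mppe1, Ldlrad4 and Gnpda1 had another probe, and none of those other probes was called. Probe sequences were not examined. Whether a difference lay in the amount of RNA or in how well a probe bound the parental copies was therefore not tested.

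Smad4, the shared partner of the SMAD proteins that carry TGF-beta and BMP signals into the nucleus, followed Mro most closely of the named genes. It stands 3 measured genes before Mro. In low mice Smad4 ran from -0.21 through a median of -0.0987 to 0.0301, in the mice between from -0.123 through -0.00275 to 0.17, and in high mice from -0.112 through 0.0605 to 0.226. The ranges overlapped, and the lowest high mouse lay under the low median. With a dividing line midway between the outer medians, 1 of 88 low mice and 8 of 67 high mice stood on the other group's side. Smad4 fell by 0.164 ± 0.0088 (SE) in low against high mice, or 1.46-fold (adjusted p = 2.81e-37).

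Poli, which encodes DNA polymerase iota of translesion synthesis and stands 7 genes before Mro, was lower in low mice as well. Its low mice ran from -0.167 through -0.00885 to 0.153 and its high mice from -0.016 through 0.0752 to 0.177. The groups overlapped over much of their range, with 18 low and 13 high mice across the dividing line. Poli was higher in mice from 213 than in mice up to 212 in each group, with medians of 0.0223 and -0.0404 in low and 0.104 and 0.0432 in high mice. With a line of its own in each block, a count added after the data were seen, 12 low and 7 high mice lay across. The difference was 1.22-fold (adjusted p = 1.36e-22).

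The genes directly beside Mro did not all follow it. Of the 20 measured genes nearest to Mro, 10 on each side, 7 were called (35.0%, beside 12.8% over the chromosome). Before Mro these were Tcf4, Poli, Smad4, Elac1 and Me2, and after it Pias2 and St8sia5. Me2, the mitochondrial malic enzyme and the measured gene next to Mro, was 1.1-fold higher in low mice (adjusted p = 1.83e-05), with low mice from -0.0691 through 0.0283 to 0.2 and high mice from -0.133 through -0.0128 to 0.0933. Elac1, a tRNA-processing endonuclease 2 genes away, was 1.07-fold higher (adjusted p = 0.00703). Tcf4, a basic helix-loop-helix transcription factor of developing neurons, was 1.15-fold higher (adjusted p = 4.79e-05). On the far side, Pias2, a SUMO ligase 7 genes away, was 1.08-fold lower (adjusted p = 4.74e-06), and St8sia5, a sialyltransferase of gangliosides, was 1.05-fold higher (adjusted p = 0.0333). Smad4 and Me2 thus differed in opposite directions, although only Elac1 stands between them among the measured genes.

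The other 13 of these neighbours did not pass the test. Mbd1, a reader of methylated DNA and the first measured gene after Mro, differed by -0.00282 ± 0.00798 (SE). The mean of Dcc, the netrin receptor, was -0.0012 in low and -0.00424 in high mice, and that of Rpl17, a ribosomal protein gene, was -0.00333 and -0.00303. Myo5b, a motor of vesicle transport 2 genes after Mro, was closest to the threshold, at 0.0259 ± 0.00775 (SE, adjusted p = 0.288). Stard6, a lipid transfer gene 8 genes before Mro, varied widely in every group, from -0.364 to 0.674 in low and from -0.489 to 1.08 in high mice, yet had medians of 0.0177 and 0.0363 (adjusted p = 0.999). Rab27b, Mbd2, Mex3c, Lipg, Smad7, Smad2, Haus1 and Atp5a1 made up the rest, each at an adjusted p of 0.999.

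**Figure D2:**
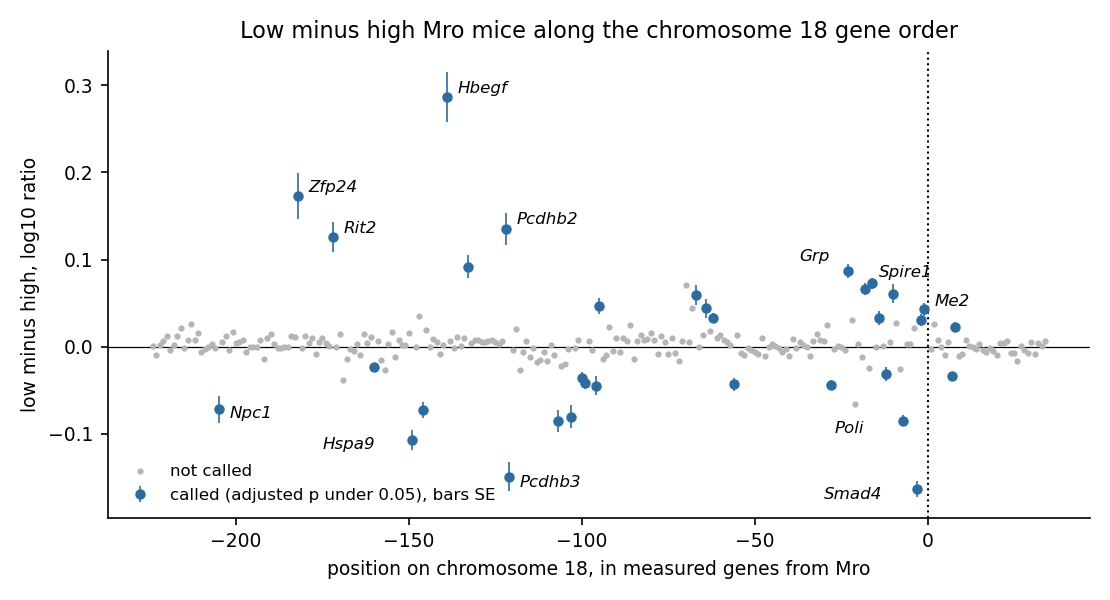
Low minus high difference in log10 ratio (vertical) for the 258 genes of chromosome 18 other than Mro, by the number of measured genes from Mro (horizontal, Mro at the dotted line). The 33 called genes (blue, bars ± SE) reach from Npc1, 205 genes before Mro, to St8sia5, 8 genes after it, among many uncalled genes near 0.

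The stretch of 37 measured genes that ends with Smad4 held 5 called genes higher and 4 lower in low mice, and 28 that were not called. Grp, which encodes gastrin-releasing peptide, a neuropeptide, stands 23 genes before Mro. Its low mice ran from -0.0785 through 0.0472 to 0.151, its mice between from -0.182 through -0.0049 to 0.125 and its high mice from -0.157 through -0.0453 to 0.0592. The medians thus went down in the order low, between, high while the ranges overlapped, and the difference was 1.22-fold (adjusted p = 4.69e-16). Spire1, an actin nucleator 16 genes away, was 1.18-fold higher in low mice (adjusted p = 1.85e-17), with medians of 0.0602 in low, 0.0276 in between and -0.0162 in high mice. Mppe1, a phosphoesterase that acts on GPI anchors, was 1.16-fold higher (adjusted p = 3.57e-16) on its chosen probe, whereas its other probe differed by -0.000315 (adjusted p = 0.999). In the same stretch Ptpn2, a tyrosine phosphatase, was 1.08-fold higher, while St8sia3, a brain sialyltransferase, was 1.11-fold lower and Ldlrad4, a negative regulator of TGF-beta signalling, 1.07-fold lower, the last on 1 of its 2 probes.

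The largest fold difference was far from Mro. Hbegf encodes heparin-binding EGF-like growth factor, a ligand of the EGF receptor family, and stands 139 genes before Mro. In low mice it ran from -0.381 through a median of 0.123 to 0.343, in the mice between from -0.451 through 0.00484 to 0.336, and in high mice from -0.469 through -0.298 to 0.157. Hbegf had a lower level of its own, set apart from the rest of the mice, and a line at -0.2, chosen after its values were seen, left 6 of 88 low mice (6.82%), 30 of 137 mice between (21.9%) and 38 of 67 high mice (56.7%) on that lower level. High mice were therefore split over both levels. Hbegf was 1.94-fold higher in low mice (0.287 ± 0.0287, SE; adjusted p = 3.24e-15).

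Around Hbegf stood further genes with sizeable differences in both directions. Hspa9, the mitochondrial chaperone mortalin, was 1.28-fold lower in low mice (adjusted p = 4.42e-13), with low mice from -0.207 through -0.0434 to 0.205 and high mice from -0.112 through 0.0731 to 0.219. Sil1, which assists the chaperone BiP in the endoplasmic reticulum, was 1.18-fold lower (adjusted p = 1.13e-10). Hars, the histidyl-tRNA synthetase, was 1.23-fold higher (adjusted p = 5.62e-08), and Taf7, a subunit of TFIID, was 1.2-fold lower (adjusted p = 3.94e-06).

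The clustered protocadherins, cell-surface adhesion proteins that neurons use to tell their own branches from those of others, lie in the same region. Of 21 measured members of a list of clustered and delta protocadherins, 14 were on chromosome 18 and 3 were called, all of them there and not all in the same direction. They made up 21.4% of the 14, beside 12.8% of all chromosome 18 genes. Pcdhb2 was 1.37-fold higher in low mice (adjusted p = 8.31e-09), while Pcdhb3, its neighbour in the gene order, was 1.41-fold lower (adjusted p = 1.17e-12) and Pcdhb20 1.22-fold lower (adjusted p = 1.27e-07). Low mice ran from -0.281 through -0.0684 to 0.229 for Pcdhb3 and from -0.299 through 0.0129 to 0.246 for Pcdhb2, and high mice from -0.201 through 0.0896 to 0.257 and from -0.469 through -0.121 to 0.317. Ranges overlapped for both genes and the medians were in opposite order. Beta protocadherins are close copies of each other, so probes of this family may share signal. The median difference over the list was -0.00257, beside -7.07e-05 over all genes.

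Beyond this region toward the start of the gene order fewer genes were called. Zfp24, a zinc finger gene needed for myelination, stands 182 genes before Mro and was 1.49-fold higher in low mice (adjusted p = 6.54e-07), with low mice from -0.437 through 0.0541 to 0.285 and high mice from -0.479 through -0.0999 to 0.211. Rit2, a Ras-like GTPase of neurons, was 1.34-fold higher (adjusted p = 1.04e-08). Npc1, the cholesterol exporter of lysosomes, was the most distant called gene, 205 genes away, and was 1.18-fold lower (adjusted p = 0.0026). Its groups overlapped widely, with 35 of 88 low and 21 of 67 high mice across the dividing line, or 32 and 24 with a line in each block.

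The remaining called genes of chromosome 18 each differed by at most 1.15-fold. Tnfaip8, a regulator of cell death, Lox, the lysyl oxidase of collagen, Snx24, a sorting nexin, and Gnpda1, a glucosamine-6-phosphate deaminase, were higher in low mice, by 1.15-fold, 1.11-fold, 1.08-fold and 1.11-fold. A less variable probe of Gnpda1 differed by 0.0235 and was not called (adjusted p = 0.217). Hdac3, a histone deacetylase, Fchsd1, Rnf14, a ubiquitin ligase, Ccdc192 and Epb41l4a were lower, by 1.09-fold, 1.1-fold, 1.11-fold, 1.1-fold and 1.06-fold. The smallest adjusted p among these 9 was that of Fchsd1 (7.57e-08) and the largest that of Rnf14 (0.0263).

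With the measured genes of the chromosome divided by order into 7 stretches, of 37 genes each apart from the last with 36 besides Mro, each stretch held at least 1 call. From the start of the order they held 1 (2.7%), 3 (8.11%), 6 (16.2%), 6 (16.2%), 4 (10.8%), 9 (24.3%) and 4 (11.1%) called genes. The next-to-last stretch, from Pde6a to Smad4 just before Mro, thus held the most, and the first, from Crem to Mep1b, the fewest. Expressed in units of the gene's own SD over all mice, the largest difference of each stretch was 0.677 (Npc1), 1.06 (Rit2), 1.34 (Hbegf), 1.05 (Fchsd1), 0.881 (Tnfaip8), 2.03 (Smad4) and 0.935 (Pias2). Genes that varied widely without following Mro also lay along the chromosome, among them Myot, a muscle cytoskeleton gene 79 genes before Mro, with an SD of 0.203 and a difference of 0.00722 (adjusted p = 0.999). The median size of the difference was 0.0067 over the uncalled genes of chromosome 18 and 0.00489 over the genes of other chromosomes.

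**Figure D3:**
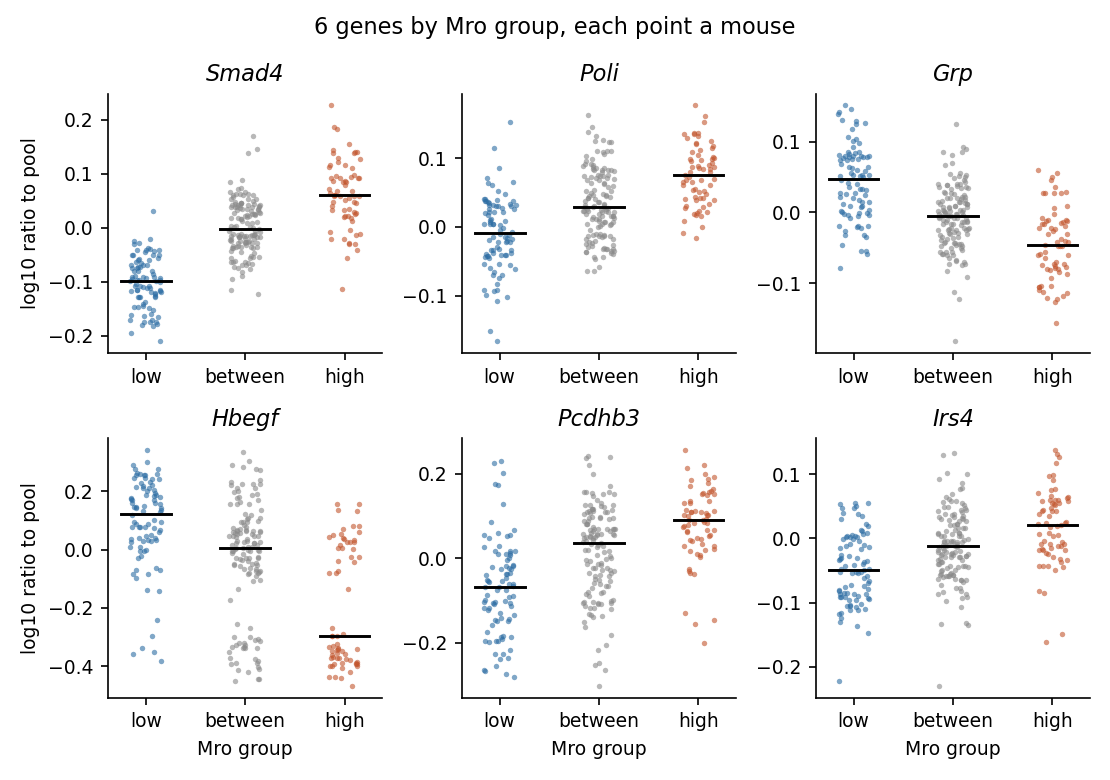
Log10 ratio to the pool of Smad4, Poli, Grp, Hbegf, Pcdhb3 and Irs4 in each mouse (points) by Mro group, with medians (bars). Smad4 separates low from high mice best of these 6, with 1 low and 8 high mice past the midline, and Hbegf shows a lower level that holds 38 of 67 high but 6 of 88 low mice.

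Apart from chromosome 18, named genes were called on chromosomes X, 15 and 5, 1 on each. Irs4, an insulin receptor substrate on chromosome X, was 1.16-fold lower in low mice (adjusted p = 5.22e-08). Its low mice ran from -0.222 through -0.0486 to 0.055, its mice between from -0.23 through -0.0124 to 0.132 and its high mice from -0.162 through 0.0211 to 0.138, so that the medians rose with Mro and the ranges overlapped. Within blocks Irs4 differed by -0.0873 in mice up to 212 (adjusted p = 6.76e-06) and by -0.0395 in mice from 213 (adjusted p = 0.456). Tmem249 on chromosome 15 was 1.03-fold higher in low mice (adjusted p = 0.00791), and Sema3c on chromosome 5, a secreted guidance cue, 1.05-fold higher (adjusted p = 0.0282). Neither passed in mice up to 212 (adjusted p = 0.319 and 0.582) or from 213 (1.0 for both), and Sema3c did not pass with arrays centred and scaled (adjusted p = 0.0591) or weighted (0.108). On each of the other chromosomes limma called no named gene, and between 0 and 4.71% of their genes stood at an unadjusted p under 0.05. A probe of Top2a on chromosome 11 (-0.118, adjusted p = 2.12e-09) and a probe of Olfr1506 on chromosome 2 (0.0299, adjusted p = 3.43e-06) were also called, while the more variable probe that stood for each gene was not. Fhod3 of chromosome 18 was called on its less variable probe only (0.0512, adjusted p = 6.61e-06).

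Of the 68 called probes, 29 had no named gene here, 15 higher and 14 lower in low mice, and their chromosomes are therefore unknown. Whether any of these 29 probes reads Mro itself is unknown as well. The smallest adjusted p of the whole comparison belonged to one of them, probe 10024415360. Its low mice ran from -0.182 through -0.0834 to 0.0441 and its high mice from -0.0177 through 0.052 to 0.132. Only 2 low and 1 high mice lay across the dividing line, a cleaner separation than that of Smad4, and the probe was 1.38-fold lower in low mice (adjusted p = 1.6e-54). In the other direction, probe 10024410342 was 1.47-fold higher in low mice (adjusted p = 1.28e-19).

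The mice between had no part in the comparison of low with high, and their means were in between for all 33 called genes of chromosome 18, beside 32.5% of all named genes. The shares are not like for like, since the 33 genes were called for outer means that lie apart. Their median difference was 0.0609 in size, beside 0.00494 over all named genes, so lying in between does not by itself show a dose relation. The mean of the mice between stood 25.3% to 84.3% of the way from the low to the high mean, with a median of 48.2%, and within 25% to 75% for 32 of the 33 genes. For Smad4 it stood 63% of the way, for Poli 53.4%, for Grp 56.4%, for Spire1 38.6% and for Hbegf 42%. St8sia5, at 84.3%, and Gnpda1, at 25.3%, were the ends of this range. A departure of the mice between from the midpoint was called for 0 of 23548 probes by limma (0%), with 1321 probes at an unadjusted p under 0.05 (5.61%). Of the 33 genes, Smad4 alone had such an unadjusted p (0.000621), its mice between lying 0.0212 ± 0.00612 (SE) above the midpoint (adjusted p = 0.821).

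The single steps were also tested over all 292 mice. From low to between 14 of all named genes were called (0.129%), 13 of them on chromosome 18 (5.04% of the genes there), and from between to high 12 (0.111%), all on chromosome 18 (4.65%). The 1 gene elsewhere was Irs4, which differed by 0.0337 from low to between (adjusted p = 0.00883). Smad4, Poli, Grp, Mppe1, Spire1, Hbegf, Hspa9 and Sil1 were called at both steps. Smad4 differed by 0.103 from low to between and by 0.0606 from between to high.

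**Figure D4:**
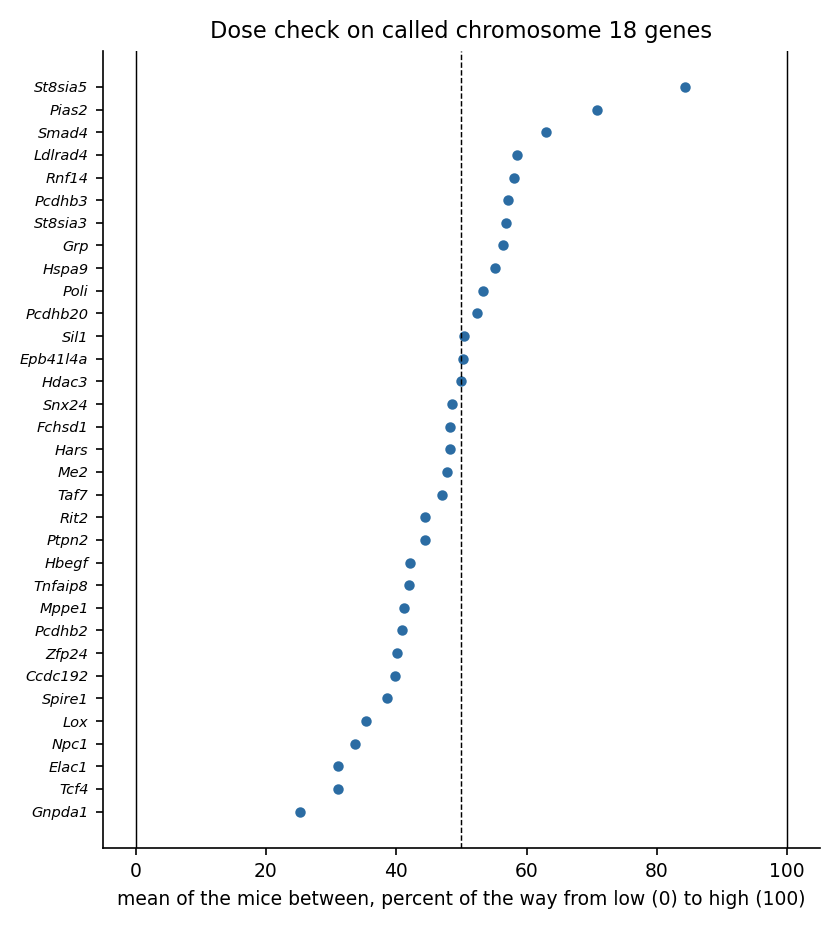
Mean of the 137 mice between for each called gene of chromosome 18, as percent of the way from the low mean (0) to the high mean (100), adjusted for block, with the midpoint dashed. All 33 genes lie between the outer means, from 25.3% (Gnpda1) to 84.3% (St8sia5).

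Each block alone gave the same signs. All 33 called genes of chromosome 18 differed in the same direction in both blocks and in each of the sets A, B and C. In mice up to 212 alone (44 low, 34 high) 22 named genes were called (0.203%), 19 of them on chromosome 18 (7.36% of the genes there) and among the 33. The other 3 were Irs4, Ccnb3 and Olfr992, named after their values were seen. In mice from 213 alone (44 low, 33 high) 21 were called (0.194%), all on chromosome 18 (8.14%) and among the 33, and 15 genes were called in both blocks. In set A alone 3 of the 33 genes passed, Smad4, Poli and Mppe1, and in set B alone 17. A difference between sets A and B in the size of the contrast was called for 0 probes by limma, with 686 at an unadjusted p under 0.05 and a smallest adjusted p of 0.677. For 28 of the 33 genes the difference was larger in set B, for Hbegf 0.391 against 0.203 (unadjusted p = 0.0206).

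Smad4 was the one named gene called for a difference that changed with the block (0.00923% of named genes called, and 0.0127% of all probes, which were 3). By the same limma interaction 892 of 23548 probes stood at an unadjusted p under 0.05. That count does not show further genes of this kind. A gene that was not called is not thereby shown to be free of such a change. In mice up to 212 the median of Smad4 was -0.127 in low, 0.0252 in between and 0.0892 in high mice, and in mice from 213 it was -0.0708, -0.015 and 0.0321. Low mice were thus less low and high mice less high in mice from 213. The difference was 1.67-fold in mice up to 212 and 1.27-fold in mice from 213, and the change between blocks was 0.118 ± 0.0149 (SE; limma interaction, adjusted p = 9.39e-09). Sets A and B, both of mice up to 212, gave differences of -0.204 and -0.234. Poli, by contrast, differed by -0.0845 and -0.0856 in the blocks and Grp by 0.0844 and 0.0892.

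**Figure D5:**
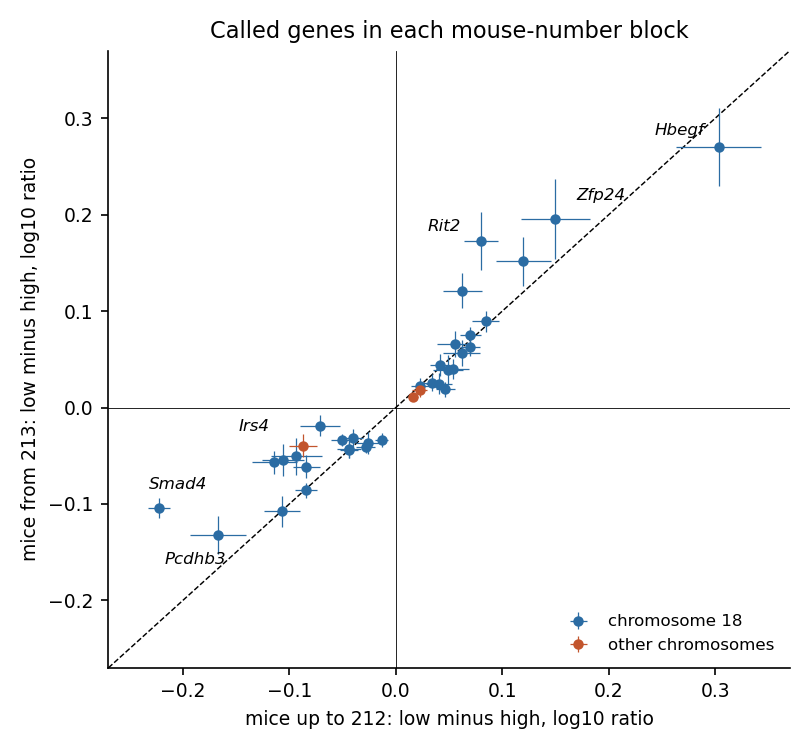
Low minus high difference in log10 ratio of the 36 called genes in mice up to 212 (horizontal) and from 213 (vertical), with SE bars in both directions and the line of equal differences (dashed). Every gene keeps its sign, and Smad4 lies off the line, at -0.222 and -0.104.

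Pathways and cell types that could accompany these differences were examined through lists, which are described by counts only. In TGF-beta and SMAD signalling, 34 genes were measured and Smad4 was the 1 called (2.94%, beside 0.332% of all named genes and 12.8% of those on chromosome 18, where 3 of the 34 lie). Ldlrad4, called above, is not in that list. Smad2 (0.00554 ± 0.00787, SE) and the inhibitory Smad7 (-0.0102 ± 0.00827, SE), which also lie near Mro, did not pass, and the list's median difference was -0.00177. Among 15 genes of malate and NADPH metabolism Me2 was the 1 called, or 6.67%, beside 0.332% of all named genes (median difference 0.0031, low minus high). Me2 is also the only 1 of the 15 on chromosome 18. None was called of 2 measured genes of the maestro family, 13 of gonad development and 14 of the nucleolus and ribosome biogenesis. None of those measured genes lies on chromosome 18. With 0.0284% of genes elsewhere called, the lack of calls says little about these lists. Among those 29 genes 1, Cyp26b1, stood at an unadjusted p under 0.05.

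Of 56 measured markers of cell types 0 were called by limma between low and high mice, and with 0.332% of all named genes called, so few markers say little about cell types. The lists held 8 measured genes of neurons, 8 of astrocytes, 9 of oligodendrocytes, 7 of microglia, 8 of endothelium, 5 of choroid plexus, 5 of red cells and 6 of the anterior pituitary. At an unadjusted p under 0.05 stood 1 gene each of endothelium, choroid plexus and red cells, or 5.36% of the markers, beside 3.38% of all named genes. The Y-linked gene Eif2s3y, which takes separate levels in these mice, had 46 of 88 low mice (52.3%), 64 of 137 mice between (46.7%) and 29 of 67 high mice (43.3%) on its lower level, under -0.8, a line chosen after the data were seen. The low median was therefore -1.46 and the high median -0.00636, and the gene did not pass (adjusted p = 0.999). With Eif2s3y and the pituitary hormone gene Prl as covariates, 33 genes of chromosome 18 were called, 32 of them among those named above.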

How the data were processed

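Per the labels, RNA of 292 brains was labelled with Cy3 and set against a Cy5 pool on 2-colour arrays. The authors deposited 1 value per probe and array, taken as a log10 ratio of mouse to pool; neither their background correction nor their normalization is stated in the labels, nor the log base and direction. No signal intensities were used, so the stated precision rests on the number of arrays and the spread between mice, which includes measurement error. Of 23574 probes, 25 missing on over 5% of arrays were left out and 252 missing values filled with the probe's mean. Of the probes kept, 12645 matched a gene of assembly GRCm38.p6 (10835 genes, each represented by its largest-SD probe), 1002 had a gene identifier without a match, 48 had several genes and 9854 had no annotation. Names and gene order came from that table, and no coordinates were used.

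Low and high mice were compared per probe with limma 3.58.1 in R 4.3.3 (lmFit and eBayes, mouse-number block as covariate), with Benjamini-Hochberg adjustment over 23548 probes, and called at an adjusted p under 0.05. The dose check used all mice in 3 levels, and an interaction term tested blocks. Named were the 15 largest same-signed differences on chromosome 18, the 10 nearest measured genes on each side of Mro, up to 10 called genes elsewhere, and called list members; the remaining called genes are given in brief. The Mro groups, lists and tests were chosen with earlier results of these data known. The test was tried on simulated data. Sets A and B, their comparison, Smad4 or Hbegf as covariate, the Hbegf and Eif2s3y levels, the dividing line by block and the reading in base 2 were added after the data were seen.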

Additional observations from a re-analysis of the deposited data

Results flagged for a closer look

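Smad4 stood out because its low against high difference itself differed between the mouse-number blocks. The difference was smaller in mice from 213 by 0.118 on the log10 scale (limma interaction, adjusted p = 9.39e-09). That test called 3 probes, and the other 2 have no named gene here. With arrays centred and scaled Smad4 was the only probe called (0.133, adjusted p = 3.12e-09).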

How the results depend on the processing

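No called gene of chromosome 18 changed direction in the settings chosen before the alternatives were run. The requirement of at least 1.2-fold, 1 of these settings, was met by 12 of the 33. Leaving that setting aside, 13 of the 33 kept their call in each planned setting in which they were tested. With Smad4 as covariate, added after the data were seen, 5043 probes, 97 genes of chromosome 18 and 2255 elsewhere were called; 26 of the 32 called genes tested kept their call and Rnf14 reversed (0.0142, adjusted p = 0.628). With Hbegf as covariate, added likewise, 18 probes, 8 genes of chromosome 18 (Smad4, Poli, Grp, Spire1, Mppe1, St8sia3, Pias2 and Elac1) and 1 elsewhere (Slc22a30) were called; 21 called genes lost their call in the same direction, and Zfp24 (-0.0288), Pcdhb2 (-0.00123) and Npc1 (0.00901) reversed, each with an adjusted p far above the threshold. The 68 probes became 42 with stricter group bounds (44 low against 34 high mice), 24 with at least 1.2-fold required, 45 among probes above the median SD, and, in settings added later, 9 in set A and 36 in set B alone. The count of 33 genes of chromosome 18 became 19 with stricter bounds (17 of them among the 33), 12 at 1.2-fold, 19 in mice up to 212, 21 in mice from 213, 3 in set A and 17 in set B. The 3 genes elsewhere became 5 with array weights (Irs4, Tmem249, Cela2a, Gdpd2 and Padi1), 5 with any probe of a gene, 1 with stricter bounds (Gdpd2), 1 above the median SD (Irs4), 1 each in set A (Ndufb6) and set B (Irs4), 0 at 1.2-fold and 0 in mice from 213 (limma; 231 of 10576 at an unadjusted p under 0.05 there), so no gene outside chromosome 18 was called in both blocks. Besides those 3 genes, Tnnc1 on chromosome 14 was called in 2 covariate settings. Its adjusted p by limma was 0.029 with the sets A, B and C and 0.0221 with Eif2s3y and Prl. The cause was not tested. The 3 probes that differed between blocks became 1 with scaled arrays. Fewer mice or probes enter the strict, block, set and SD settings; for array weights, scaling and the Smad4 and Hbegf covariates the cause was not tested. Signal over background is unknown.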
